A study of Mus musculus with 3 samples.

Results

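The cells described here were CD45+ leukocytes of the small intestinal muscularis that carried transcripts of natural killer (NK) and innate lymphoid cells but none of the CD3 chains. They were selected on 11 genes. A member had 0 unique molecular identifiers (UMIs, each standing for 1 captured transcript) of Cd3d, Cd3e and Cd3g, at most 1 UMI of Trac, at least 2 UMIs in the sum of Ncr1, Klrb1c, Il7r and Thy1, 0 UMIs of Cd79a and Ms4a1, and under 0.3% of its UMIs in Lyz2. This chose 92 of 4102 cells, of which 17 came from the naïve library, 31 from the 24 h library and 44 from the 72 h library. Of these, 52 had a UMI of Ncr1 or Klrb1c and are called NK-like, and the remaining 40 are called other cells.

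The study profiled WT C57BL/6J mice of 12 weeks by 10x Genomics 3' single-cell RNA sequencing. The muscularis externa was peeled from the small intestine of naïve mice, or of mice 24 h or 72 h after intestinal manipulation, a surgical model of muscularis inflammation. Each time point was a single library pooled from several mice, so time and library cannot be told apart and no test between time points was possible. Cells are not replicates of a time point, and the intervals given below, all at 95%, cover counting error only.

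NK cells and ILCs are lymphocytes without a rearranged antigen receptor. NK cells and ILC1s carry activating and inhibitory receptors such as NKp46 (Ncr1) and NK1.1 (Klrb1c), kill through perforin and granzymes and secrete interferon-γ and chemokines, whereas ILC2s are driven by the factor GATA3 and secrete IL-5, IL-13 and amphiregulin, and ILC3s secrete IL-22. In the mouse, receptors of the Ly49 family (the Klra genes) mark many circulating NK cells, and the chemokine receptor CXCR6 marks many lymphocytes that stay in tissues.

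Members had between 885 and 10056 UMIs, with a median of 2627. The median was 2513.5 in NK-like cells and 2918.5 in other cells, beside 2504.5 in the 298 CD3+ cells, which were selected by at least 2 UMIs of the CD3 chains with the same limits on B cell genes and Lyz2. A total of 3 barcodes occurred in more than 1 library, and 0 of their cells were members. Many members sat near the limits of the selection. Exactly 2 marker UMIs were seen in 25 members, while 45 cells met every other limit with 1 marker UMI. A single Trac UMI was seen in 7 members, and 1 cell was left out for 2 or more. Of the cells that met the other limits, 4 were left out for a single CD3 UMI, 65 for 2 or more, 1 for B cell genes and 11 for Lyz2. The Lyz2 limit acted unevenly, as 9 of these 11 cells were from 24 h, 2 from 72 h and 0 from the naïve library. In the NK-like cells, 34 had UMIs of both Ncr1 and Klrb1c, 8 of Ncr1 alone and 10 of Klrb1c alone, and 9 rested on a single UMI of these genes.

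Members made up 2.61% of the naïve library (17 of 652 cells, exact Clopper-Pearson interval 1.53% to 4.14%), 1.40% of the 24 h library (31 of 2211, 0.955% to 1.98%) and 3.55% of the 72 h library (44 of 1239, 2.59% to 4.74%). The intervals of the 24 h and 72 h libraries did not overlap, and that of the naïve library overlapped both. NK-like cells made up 1.23% (8 cells), 0.814% (18 cells) and 2.10% (26 cells) of these libraries. Set beside the CD3+ cells of the same library, NK-like cells stood in another order. They were 4.62% of the 173 NK-like and CD3+ cells in the naïve library (2.02% to 8.91%), 31.0% of 58 at 24 h (19.5% to 44.5%) and 21.8% of 119 at 72 h (14.8% to 30.4%). The naïve share thus lay below the intervals of both later libraries, where the number of CD3+ cells was 40 at 24 h and 93 at 72 h against 165 in naïve mice. In these dissociated and sorted samples, fewer cells of a type and a larger number of other cells cannot be told apart. Among the members, the NK-like part was 47.1% in naïve mice, 58.1% at 24 h and 59.1% at 72 h, with overlapping intervals.

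**Figure D1:**
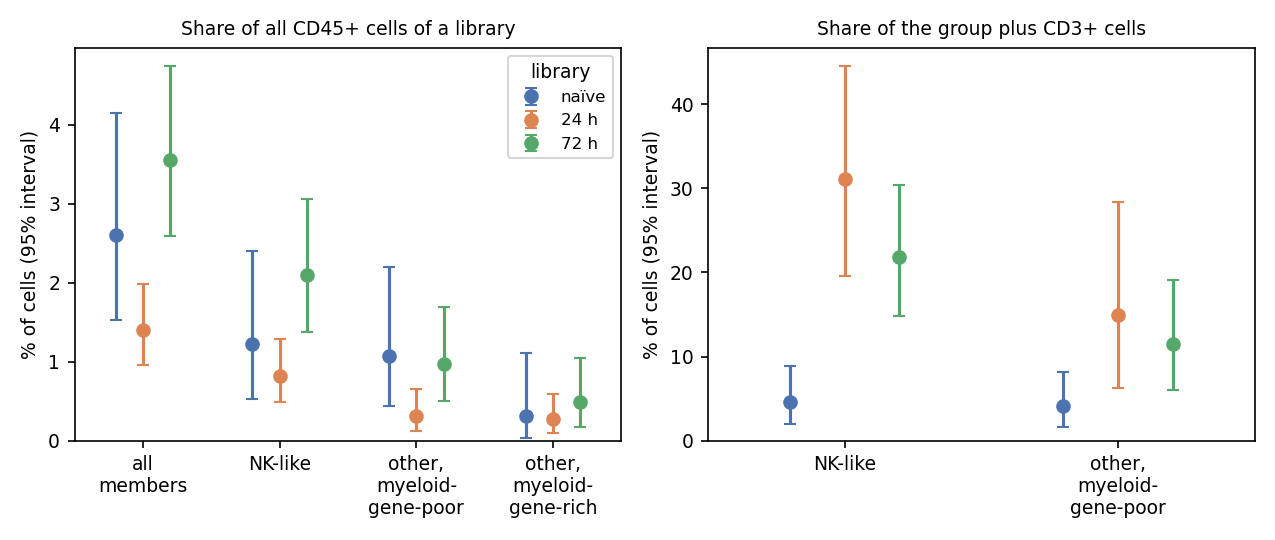
Shares of cells (%) in the naïve, 24 h and 72 h libraries, with exact Clopper-Pearson intervals as bars; left, of all cells of a library; right, of the group plus the CD3+ cells of that library. The share of all members was 1.40% at 24 h and 3.55% at 72 h, and the NK-like share beside CD3+ cells was 4.62% in the naïve library and 31.0% at 24 h.

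Transcripts of myeloid cells were scarce in NK-like cells but not in all other cells, and the T cell genes of the members are given further below. A share of UMIs in 30 monocyte, macrophage and dendritic cell genes (Lyz2 left out) was at most 0.952% in NK-like cells, whereas in other cells it reached 10.1%. Other cells were therefore divided at 1.5%, a limit set after these values were seen, into 26 cells poor in myeloid genes (7 naïve, 7 at 24 h and 12 at 72 h) and 14 rich in them (2, 6 and 6). The highest share below the limit was 0.952%, the lowest above it 1.97%, and 0 members lay between 1.0% and 1.9%. The division is a range of a score and not a cell type.

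**Figure D2:**
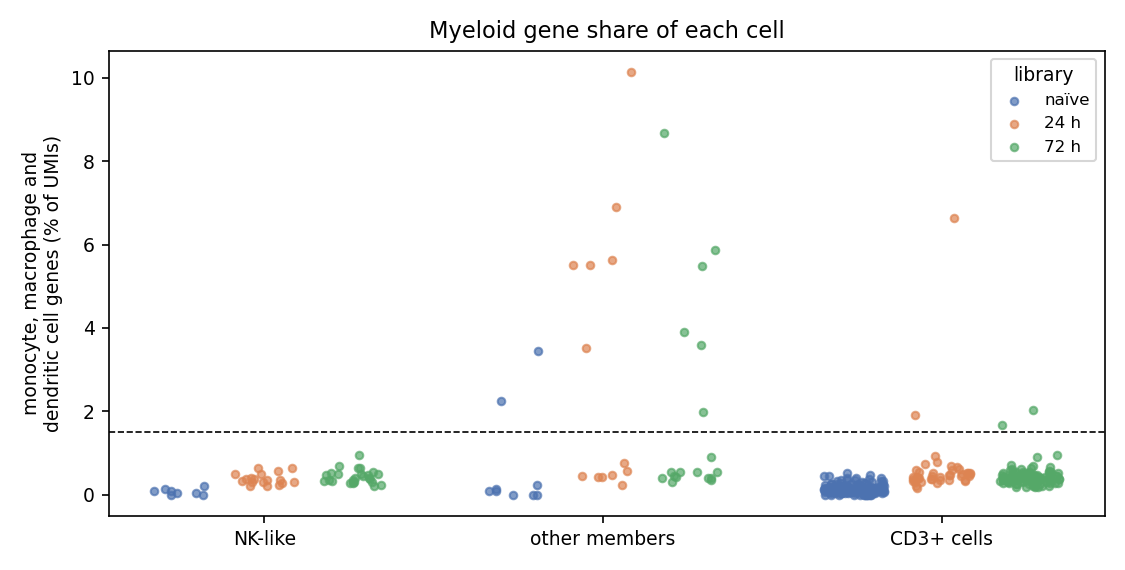
Percentage of each cell's UMIs in monocyte, macrophage and dendritic cell genes, for NK-like cells, other members and CD3+ cells, coloured by library; points are cells, spread sideways for display, and the dashed line is the 1.5% limit. All 52 NK-like cells lie below the line, and 14 of the 40 other members lie above it.

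The 14 cells rich in myeloid genes went against the label. None had a UMI of Trbc1 or Trbc2, the constant regions of the T cell receptor β chain, or of Gata3, and a count of 0 in 14 cells, taken as at most 3 cells, allows a share of cells with a UMI of up to 21.4%. All 14 had Il7r UMIs, which the selection used, while only 3 had Thy1 UMIs. They were also deeper, with a median of 6310 UMIs against 2838.5 in the 26 remaining other cells. These cells differed among libraries. Both naïve cells had UMIs of Siglech, a receptor of plasmacytoid dendritic cells, together with 23 UMIs of the transcription factor Irf8 and 13 of Cd8b1. At 24 h, the 6 cells held 260 UMIs of Lgals3, encoding galectin-3, and 4 of them carried 117 UMIs of the complement gene C1qb, a typical Mφ transcript. At 72 h, all 6 cells had UMIs of Cd74, the invariant chain of MHC class II, with 806 UMIs in all (21287 CPM, the summed UMIs of a gene scaled to the group's total), and 3 had 44 UMIs of Fscn1, an actin-bundling gene of migratory dendritic cells. Counts over lists and over all genes that use other cells are therefore given below with and without these 14 cells, while single genes are compared with the 26 cells, and the ratios against all 40 follow in a paragraph of their own.

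As a group, NK-like cells were higher than other cells for NK receptor and cytotoxic granule genes that the selection had not used. Granule genes were uneven within the group, with Gzma in 25 of 52 cells, Gzmb in 20 and Prf1 in 19. Of 392 Gzma UMIs, 370 came from 19 cells with Klra genes, described further below. Summed over the granule list, the level was 6789 CPM in NK-like cells, 1736 CPM in the 26 other cells poor in myeloid genes and 19153 CPM in CD3+ cells. The gap to CD3+ cells differed among libraries. Their levels were 27737, 7352 and 11971 CPM, against 9522, 6799 and 6147 CPM in NK-like cells (naïve, 24 h and 72 h). At 24 h the intervals overlapped. Over the 2239 genes with at least 20 UMIs in NK-like and other cells together, 10.1% were at least 2-fold higher and 10.4% at least 2-fold lower in NK-like cells, and the genes of the selection were left out. Against the 26 other cells poor in myeloid genes, 11.2% of 1613 genes were at least 2-fold higher and 4.65% at least 2-fold lower. Among the 17 genes of NK receptors and adaptors compared there, 14 were at least 2-fold higher and 1 lower, with a median log2 ratio of 2.59, beside 0.09 over all genes compared. Of 10 cytotoxic granule genes, 8 were at least 2-fold higher and 0 lower, with a median log2 ratio of 2.65. With all 40 other cells, 14 of 18 receptor and adaptor genes and 8 of 10 granule genes were at least 2-fold higher, and 1 of each list was lower. These lists were chosen with earlier results of these data known. Genes such as Klrd1 reached 20 UMIs through NK-like cells alone, which fixed their direction against the 26 cells.

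Among receptors, Klrk1, encoding the activating receptor NKG2D, had 119 UMIs in 39 of 52 NK-like cells (849 CPM), against 12 UMIs in 4 of the 26 other cells (147 CPM). Klrd1, encoding CD94, which pairs with NKG2 receptors, had 116 UMIs in 33 NK-like cells and 0 in the 26 other cells, and was at least 22.6-fold higher with the other cells set to 3 UMIs over the group. Klre1, a further receptor of this family, was found in 28 NK-like cells with 80 UMIs and in none of the 26 other cells. Klrb1b, a receptor of the NKR-P1 family, was shared, with 421 CPM in 27 NK-like cells and 293 CPM in 11 of the 26 other cells. The receptors thus differed, from those at 0 in the 26 other cells to Klrb1b, which was found in both groups. The adaptor Fcer1g, which couples NKp46 to signalling, had between 1 and 15 UMIs per NK-like cell, with a median of 6.5. Its level was 2695 CPM in NK-like cells, 685 CPM in the 26 other cells and 153 CPM in B cells, in which UMIs of it were found in 7.38%, 64.7% and 52.1% of cells in the naïve, 24 h and 72 h libraries. After thinning each cell to 1000 UMIs, Fcer1g was seen in 94.2% of NK-like and 9.58% of B cells. By library, the thinned shares were 100%, 94.4% and 92.3% of NK-like cells and 3.42%, 37.5% and 21.3% of B cells (naïve, 24 h and 72 h).

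Among effector genes, Ccl5, a chemokine for T cells and monocytes, showed the highest ratio against the 26 other cells, 81.6 (exact conditional Poisson interval 37.3 to 223), with 839 UMIs in 36 NK-like cells against 6 UMIs in 5 cells. Gzma, encoding granzyme A, followed with a ratio of 76.2 (25.9 to 371) and Xcl1, a chemokine that attracts cross-presenting dendritic cells, with 70.0 (12.3 to 2787), the latter resting on 1 UMI in the other cells. The perforin gene Prf1 had 39 UMIs in 19 NK-like cells against 1 UMI, a ratio of 22.7 (3.85 to 921). Gzmc, encoding granzyme C, had 93 UMIs in 12 NK-like cells and 0 in the 40 other cells. In 326 B cells, which should lack these genes, Gzma UMIs were found in 9.51% and Ccl5 UMIs in 19.0% of cells (median depth 1841 UMIs). The 3 Gzma and 5 Ccl5 cells among the 26 other cells, 11.5% and 19.2%, are close to this level, which pools libraries (244 of the B cells were naïve). In the naïve library, Gzma was seen in 28.6% of these other cells and 11.5% of B cells. At 72 h, Ccl5 was seen in 25% of both, and in 16.7% and 4.26% after thinning to 1000 UMIs. At 24 h, 0 of these other cells had either gene. Whether these UMIs are background was not tested. Thinned to 1000 UMIs, Gzma was seen in 0 of 25 other cells and 2.56% of B cells, and Ccl5 in 8% and 9.58%. Nkg7, a granule membrane gene, was seen in 78.8% of NK-like cells and 2.45% of B cells, and in 75% and 0.958% after each cell was thinned to 1000 UMIs. Pooled over libraries, several of these genes were as frequent in CD3+ cells. There Nkg7 was seen in 77.5% of cells, Gzma in 48.0% and Ccl5 in 75.5%, against 48.1% for Gzma and 69.2% for Ccl5 in NK-like cells. The match did not hold in each library. Gzma was seen in 104 of 165, 7 of 40 and 32 of 93 CD3+ cells (naïve, 24 h and 72 h). In NK-like cells it was seen in 4 of 8, 9 of 18 and 12 of 26, so the order changed. Ccl5 was seen in 142, 25 and 58 of these CD3+ cells, and in 6, 11 and 19 of these NK-like cells. Xcl1 (23.2%), Prf1 (9.06%) and Gzmc (2.35%) were less frequent in CD3+ than in NK-like cells (50%, 36.5% and 23.1%).

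The transcription factors fell into shared and unshared genes. Id2, which all innate lymphocytes require, stood at 1968 CPM in NK-like cells (49 of 52 cells) and 1797 CPM in the 26 other cells (23 of 26). Tbx21, encoding T-bet, had 18 UMIs in 14 NK-like cells and 1 UMI in the other cells, and Eomes, which marks NK cells rather than ILC1s, had 14 UMIs in 10 NK-like cells and 0 in the other cells. Gata3 showed the opposite order, with 78.4 CPM in NK-like cells (11 UMIs) and 538 CPM in the 26 other cells (44 UMIs), a ratio of 6.86 in favour of the latter (3.49 to 14.7). Ifng, encoding interferon-γ, was sparse, with 19 UMIs in 9 NK-like cells and 0 in the 26 other cells.

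Against all 40 other cells these genes kept their direction, although several ratios moved. Klrk1 was 9.67-fold higher in NK-like cells (5.54 to 18.2) and Klrd1 13.2-fold higher (6.92 to 28.2), with 10 UMIs in 5 of the 40 cells. Ccl5 was 34.1-fold higher (23.4 to 51.6), Gzma 74.3-fold (33.8 to 204), and Xcl1 137-fold (24.0 to 5437) and Prf1 44.4-fold (7.51 to 1797) higher, the last pair with 1 UMI each in the 40 cells. Fcer1g was 1.95-fold (1.64 to 2.31), Klrb1b 2.69-fold (1.66 to 4.47) and Id2 1.75-fold (1.45 to 2.13) higher in NK-like cells. Gata3 was 3.52-fold higher in the 40 cells.

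**Figure D3:**
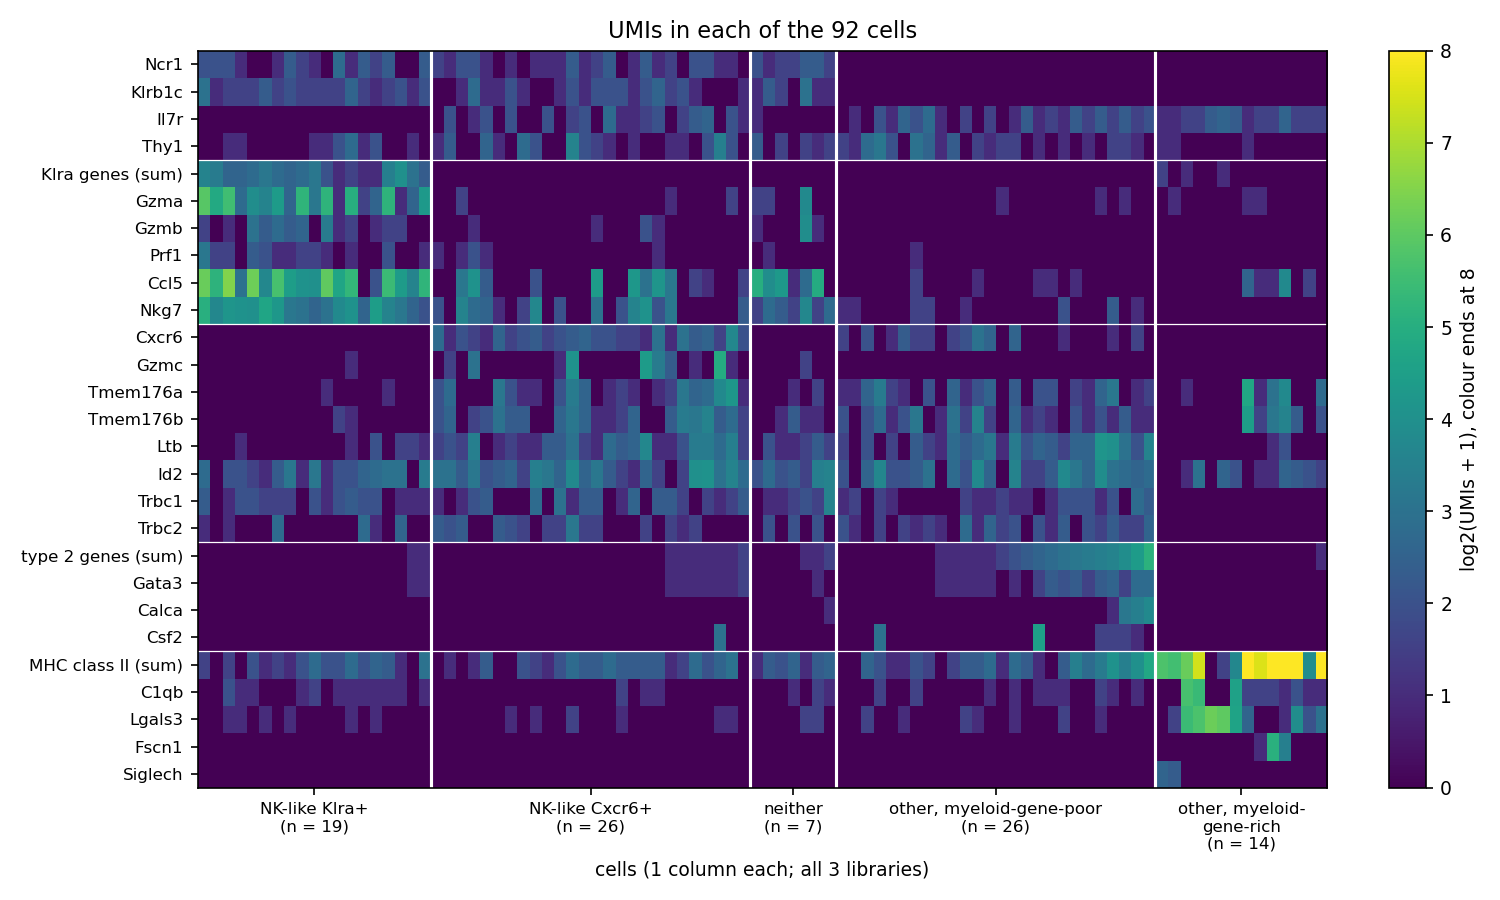
UMIs of 27 genes or gene sums (rows) in each of the 92 members (columns), as log2(UMIs + 1), with members grouped into NK-like cells with Klra, with Cxcr6 or with neither, and other cells poor or rich in myeloid genes. Gzma and the Klra genes fill the 19 columns on the left, Gzmc, Tmem176a and Ltb lie among the 26 Cxcr6+ columns, and MHC class II genes fill most of the 14 columns on the right.

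NK-like cells fell into 2 sets that did not overlap. UMIs of the Klra genes were found in 19 of 52 cells and UMIs of Cxcr6 in 26, while 0 cells had both and 7 had neither. A count of 0 in 52 cells, taken as at most 3 cells, allows a share of up to 5.77% of cells with UMIs of both. This held in each library, with 2 Klra+ and 5 Cxcr6+ cells in the naïve library, 7 and 9 at 24 h, and 10 and 12 at 72 h. Median depth was 2595 UMIs in Klra+ cells and 2315.5 in Cxcr6+ cells. Only 3 cells rested on a single Klra UMI and 4 on a single Cxcr6 UMI. In CD3+ cells, by contrast, 34 of 298 cells had Klra UMIs, 102 had Cxcr6 UMIs and 10 had both. Il7r, which the selection used, was found in 0 of 19 Klra+ cells and in 17 of 26 Cxcr6+ cells. The split was chosen after the data had been seen, and the values below are of genes that did not define it.

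**Figure D4:**
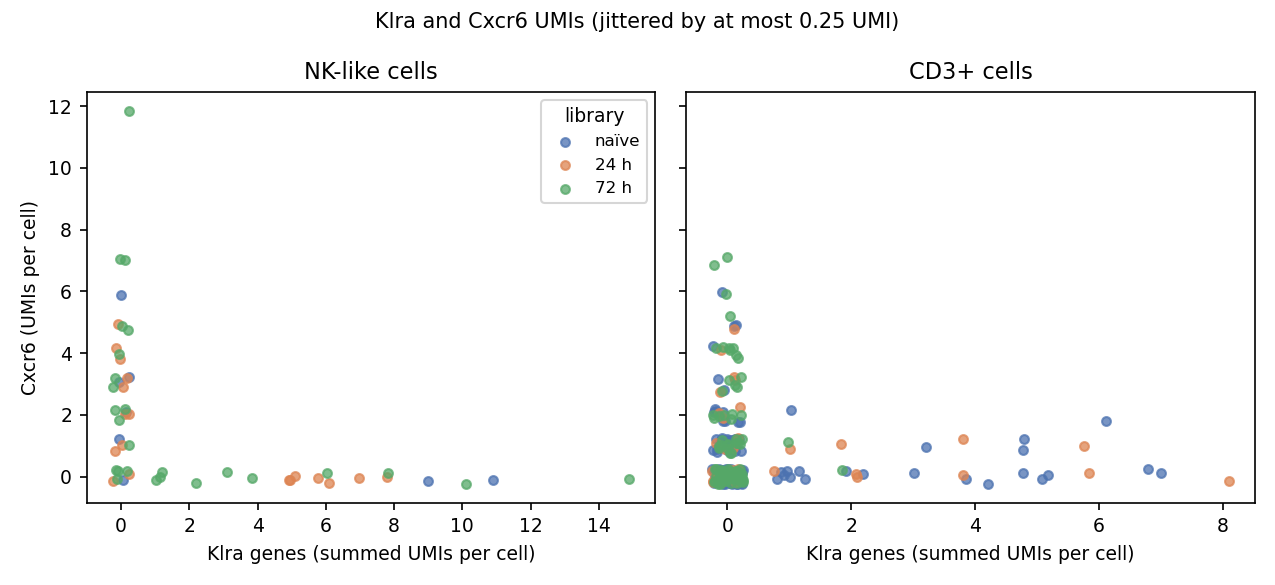
Summed UMIs of the Klra genes (horizontal) against UMIs of Cxcr6 (vertical) in each NK-like cell (left) and CD3+ cell (right), coloured by library and jittered by at most 0.25 UMI. NK-like cells lie along either axis with 0 cells off both, whereas 10 CD3+ cells have both.

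Some cytotoxic granule genes, and the few circulating NK genes that could be compared, were higher in Klra+ cells. Over the 827 genes compared, 7.74% were at least 2-fold higher and 9.55% at least 2-fold lower in Klra+ cells. Of 10 cytotoxic granule genes, 4 (Gzma, Gzmb, Prf1 and Serpinb9) were at least 2-fold higher and 1 (Gzmc) lower, with a median log2 ratio of 0.42, and of the circulating NK genes both that could be compared were higher. Gzma was detected in all 19 Klra+ cells, with 1 to 59 UMIs per cell and a median of 14, and in 3 of 26 Cxcr6+ cells with at most 2 UMIs. The ratio of summed CPM was 95.6 (40.6 to 296), and the Cxcr6+ share was 11.5%, both before and after thinning to 1000 UMIs, beside 9.51% and 2.56% of B cells. Most B cells with Gzma were naïve (28 of 31), and at 24 h and 72 h the share of B cells was 2.94% and 4.17%. Ccl5 stood at 12573 CPM in Klra+ and 1629 CPM in Cxcr6+ cells, a ratio of 7.72 (6.27 to 9.57). Both genes were thus far more abundant in Klra+ cells, although Ccl5 was present in both sets. Gzmb showed a ratio of 9.91 (4.22 to 28.4), Prf1 of 5.72 (2.47 to 15.4) and Serpinb9, an inhibitor of granzyme B, of 5.82 (1.92 to 23.6). Irf8, a transcription factor, had 39 UMIs in 15 Klra+ cells and 3 UMIs in Cxcr6+ cells. Klf2, which promotes lymphocyte egress, had 19 UMIs in 11 cells against 3 UMIs in 2. Ly6c2 was found in 8 Klra+ cells with 41 UMIs and in 0 Cxcr6+ cells, at least 17.7-fold higher with the latter set to 3 UMIs. Summed over the 13 circulating NK genes, the level was 2622 CPM (2194 to 3109) in Klra+ cells and 215 CPM (118 to 361) in Cxcr6+ cells.

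Cxcr6+ cells were higher for genes shared with ILCs and, in a part of the cells, for another granzyme. Gzmc had 90 UMIs in 10 of 26 Cxcr6+ cells, with up to 29 in a cell, and 1 UMI in Klra+ cells, a ratio of 69.6 (12.2 to 2781). Tmem176a had 97 UMIs in 20 cells against 2, a ratio of 37.5 (10.1 to 314), and Tmem176b 99 UMIs in 21 cells against 3, a ratio of 25.5 (8.49 to 126). Gzma and Gzmc were thus highest in different sets, and 4 NK-like cells had UMIs of both. Ltb, encoding lymphotoxin β, was found in 25 of 26 Cxcr6+ cells (1660 CPM) and 6 of 19 Klra+ cells (199 CPM), a ratio of 8.36 (4.37 to 17.9). Ckb, a creatine kinase, was 44.1-fold higher (7.60 to 1772) and Ikzf2, encoding the factor Helios, 20.1-fold higher (3.31 to 825), each resting on 1 UMI in Klra+ cells. Of 6 genes from the tissue-resident ILC1 list, 4 were at least 2-fold lower in Klra+ cells, and of 4 from the ILC3 list all 4 were, Tmem176a, Tmem176b, Ltb and Ncoa7, of which the first 3 stand in both lists. Of 9 immediate early and heat shock genes, 5 were at least 2-fold lower and 0 higher in Klra+ cells, and whether handling of the tissue had a part in this was not tested.

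Several of these genes, but not all, kept their order in each library. Gzma stood at 22979, 5540 and 6460 CPM in the Klra+ cells of the naïve, 24 h and 72 h libraries, and at 183, 50.1 and 58.6 CPM in the Cxcr6+ cells. Gzmc stood at 823, 1051 and 1757 CPM in Cxcr6+ cells, and at 0, 0 and 36.7 CPM in Klra+ cells. Tyrobp, an adaptor of Ly49 receptors, stood at 5283, 4505 and 3487 CPM in Klra+ cells and at 1006, 901 and 820 CPM in Cxcr6+ cells. For these 3 genes every library showed the same direction, although the naïve values of Klra+ cells rest on 2 cells. Xcl1 did not keep its order, with 0, 673 and 587 CPM in Klra+ cells and 1372, 200.2 and 1230 CPM in Cxcr6+ cells. Serpinb9 had 0 UMIs in both sets of the naïve library, and Junb, an immediate early gene lower in Klra+ cells at 24 h (362 against 2202 CPM) and 72 h (404 against 1493 CPM), was higher there in naïve cells (1849 against 1098 CPM). Without the 72 h library the genes at least 2-fold higher in Klra+ cells numbered 32 instead of 64 and those lower 43 instead of 79, as fewer genes reached 20 UMIs (384 instead of 827). Single ratios moved as well when 1 library was left out, without a change of direction. Klra+ over Cxcr6+, Gzmb reached 32.1 without the 72 h library and 5.81 without the 24 h library, Prf1 12.2 and Klf2 18.6 without the naïve library, and Ccl5 12.1, Serpinb9 12.0 and Irf8 38.8 without the 72 h library, while Gzma stayed between 86.5 and 110.

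The lower bound of Ly6c2 fell from 17.7 to 4.91 without the 72 h library, from which 30 of its 41 UMIs came. Cxcr6+ over Klra+, Gzmc, Tmem176a, Tmem176b and Ikzf2 had 0 UMIs in Klra+ cells outside the 72 h library. With these set to 3 UMIs over the group, the values without that library were at least 7.47, 9.22, 11.7 and 2.24. Ckb had 0 UMIs in Klra+ cells outside the 24 h library and was at least 10.6-fold higher without it. Ltb stayed between 7.65 and 9.96.

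**Figure D5:**
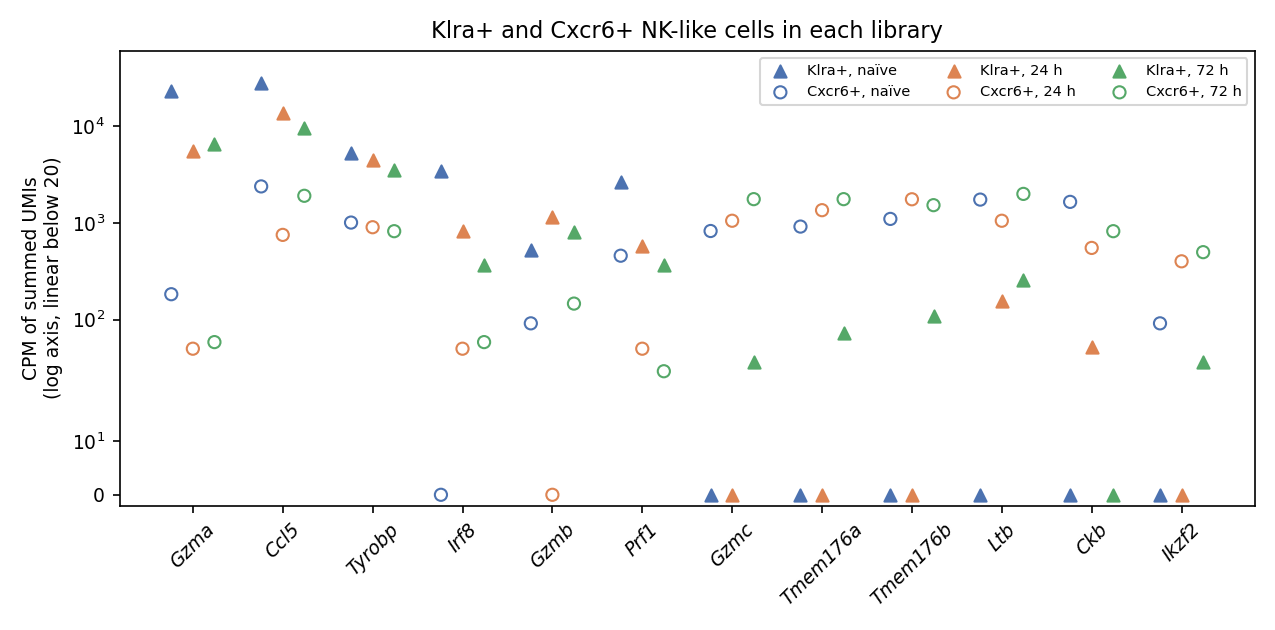
CPM of summed UMIs (log axis, linear below 20) of 12 genes in Klra+ NK-like cells (triangles) and Cxcr6+ NK-like cells (circles) of each library. Triangles lie above circles for Gzma, Ccl5, Tyrobp, Irf8, Gzmb and Prf1, and below them for Gzmc, Tmem176a, Tmem176b, Ltb, Ckb and Ikzf2, in all 3 libraries.

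The Klra genes themselves, which defined the first set, were led by Klra7 with 43 UMIs in 12 cells and Klra4 with 35 UMIs in 10 cells. Their assignment is uncertain, as 43.9% of the 30-base words in the last 400 bases of Klra7 transcripts, and 70.9% of those of Klra9, occur in transcripts of other genes of the family. The same held for Klrc1 (75.9%, shared with Klrc2 and Klrc3), whereas 0 words of Gzma, Gzmb, Gzmc or Klrk1 were shared. Klrb1c, which the selection used, shared 19.8% of its words, with Klrb1a and Klrb1b among others, and Klrb1b shared 27.1%. The division of UMIs among these genes is therefore uncertain too. Many of these receptors lie together in the NK gene complex on mouse chromosome 6 (GRCm38, GENCODE M21), taken from Klrb1a at its lower end to Klra2, positions 128609227 to 131247362. Of its 39 measured genes, 14 could be compared between NK-like and other cells, and 11 of them were at least 2-fold higher in NK-like cells and 0 lower, beside 10.1% and 10.4% of all genes. Cd69, Clec2d and Clec2i were the 3 that were not. Against the 26 other cells poor in myeloid genes, 10 of 13 were at least 2-fold higher and 1 lower, beside 11.2% and 4.65%. These counts are a description. Klrb1a, Klrc2, Klra4 and Klra7 had 0 UMIs in the other cells and reached 20 UMIs through NK-like cells alone, which fixed their direction. The 11 higher genes also all stand in the list of NK receptors and adaptors, so they repeat the result of that list.

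The 26 other cells poor in myeloid genes were themselves mixed. The sum of 9 type 2 genes (Gata3, Il17rb, Il1rl1, Il13, Il5, Il4, Areg, Calca and Ccl1) was at least 2 UMIs in 13 cells, exactly 1 UMI in 5 and 0 in 8. This limit was chosen after the values were seen, and 1 cell lay exactly on it. Of the 13 cells with type 2 genes, 4 were naïve, 1 was from 24 h and 8 from 72 h. In them Gata3 had 39 UMIs in 11 cells, Areg, encoding amphiregulin, 16 UMIs in 8, and Calca, encoding the neuropeptide CGRP, 32 UMIs in 4. Il5 had 5 UMIs and Il13 6 UMIs, in 2 cells each. These 13 cells were deeper than the 13 others, with a median of 3772 against 2358 UMIs. Some genes outside this sum differed too, and the ones named here were chosen after their values were seen. Klrg1, an inhibitory receptor frequent on ILC2s, was found in 11 of these 13 cells and in 2 of the 13 others (451 and 227 CPM), and the tetraspanin gene Cd81 in 10 and 1 (490.3 and 32.5 CPM). Csf2, encoding GM-CSF, was found in 5 and 1, but 22 of its 29 UMIs in the former came from a single cell. Other ILC2 genes differed little, with 157 and 162 CPM of Il2ra, encoding a chain of the IL-2 receptor, and 255 and 292 CPM of the transcription factor Rora. Conversely, Cxcr6 was found in 4 and 10 cells (176 and 1007 CPM) and Klrb1b in 3 and 8 (58.8 and 682 CPM), and Fcer1g stood at 216 and 1461 CPM. Pooled over libraries, Cd81 thus went with the type 2 genes, and most of the remaining cells carried Cxcr6. These contrasts are mixed with library, as the 13 others were 3 naïve cells, 6 from 24 h and 4 from 72 h. Of the 26 cells, Cxcr6 was found in 1 of 7 naïve, 6 of 7 at 24 h and 7 of 12 at 72 h. At 72 h it was found in 3 of the 8 cells with type 2 genes. Against NK-like cells, 7 of 9 genes of the ILC2 list were at least 2-fold higher in the 26 cells, beside 4.65% of all genes, and 7 of 9 in all 40 other cells, beside 10.4%. Ly6a, a stem cell antigen also found on ILC2s, was among the highest at 42.9-fold (7.02 to 1759.9, resting on 1 UMI in NK-like cells).

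Few UMIs of ILC3 cytokine and receptor genes were captured, and at this depth cells with such genes can show 0 UMIs. Of the genes given here, Il22 and Il23r had 1 UMI each in the 26 cells, and Il17a, Il17f, Ccr6 and Cd4 had 0. Cpa3 of mast cells had 0 UMIs in both NK-like cells and these 26 cells.

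T cell genes were present in most lymphoid members. UMIs of Trbc1 or Trbc2 were found in 90.4% of NK-like cells (47 of 52) and 92.3% of the 26 other cells, beside 96.3% of CD3+ cells and 3.07% of B cells. The level of Trbc1 was 806 CPM in NK-like and 829 CPM in CD3+ cells, and that of Trbc2 513 and 1732 CPM. Trbc1 and Trbc2 share part of their 3' sequence, so their division is uncertain. Other T cell genes were lower in NK-like cells to differing degrees. Cd5 and Cd6 had 0 UMIs in NK-like cells, against 104 and 127 CPM in CD3+ cells. Cd8a stood at 7.13 against 911 CPM, Trdc at 35.7 against 762 CPM, Lat, a signalling adaptor of the T cell receptor, at 85.6 against 495 CPM, and Cd28 at 42.8 against 123 CPM. Summed over the T cell list without the genes of the selection, the level was 1804 CPM in NK-like cells, 1920 CPM in the 26 other cells, 7077 CPM in CD3+ cells and 36.7 CPM in B cells. Leaving out every cell with a UMI of Trbc1, Trbc2, Cd5, Cd6 or Cd28 left 20 members, of which 4 were NK-like. Whether some members are T cells whose CD3 transcripts were missed was not tested.

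Within the 72 h library, NK-like cells were set beside the 93 CD3+ cells. Of 2757 genes, 7.54% were at least 2-fold higher and 10.6% at least 2-fold lower in NK-like cells. Of 19 NK receptor and adaptor genes, 11 were at least 2-fold higher and 1 lower, led by Klrb1f at 97.6-fold (15.8 to 4026, with 1 UMI in CD3+ cells). Klrk1 was 19.3-fold higher (11.3 to 34.9), with 74 UMIs in 20 of 26 cells against 17 UMIs in 8 of 93. Gzmc had the highest ratio, 135 (35.9 to 1142), with 61 UMIs in 6 of 26 cells against 2 UMIs in 2 of 93. It rested on few cells, as 1 cell held 29 of the 61 UMIs and another 20. The granule list as a whole did not follow, with 3 of 10 genes at least 2-fold higher and 2 lower, the lower genes being Gzma and Gzmb. Gzma stood at 2503 CPM in NK-like and 8694 CPM in CD3+ cells, and Gzmb at 389 and 1258 CPM. NK-like cells were also lower for 8 of 12 dividing cell genes and 4 of 8 interferon response genes, with Ifi27l2a, an interferon-induced gene, 7.89-fold lower (3.57 to 21.8). At least 4 UMIs of Mki67, Top2a, Pclaf and Stmn1 together were seen in 1 NK-like cell of this library and in 7 CD3+ cells.

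All members were also compared with CD3+ cells where a library held at least 20. At 24 h, 11.8% of 1670 genes were at least 2-fold higher and 5.99% lower in members, and at 72 h 6.87% and 7.49% of 3259. Receptors and adaptors were at least 2-fold higher for 7 of 12 genes and lower for 2 at 24 h, and higher for 10 and lower for 3 of 19 at 72 h. The cells rich in myeloid genes weighed on these values, as 9 of 12 monocyte and macrophage genes were at least 2-fold higher at 24 h, with C1qa at 14.6-fold (7.12 to 34.6), and 6 of 6 dendritic cell genes at 72 h. Without these cells, 8.15% of 1374 genes were at least 2-fold higher and 6.04% lower in members at 24 h, and 6.11% and 8.82% of 3028 at 72 h. Receptors and adaptors were then higher for 8 and lower for 1 of 11 genes at 24 h, and higher for 10 and lower for 1 of 19 at 72 h.

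NK-like and other cells were not compared between time points, because at least 1 of the libraries of every pair held fewer than 20 cells of the group (8, 18 and 26 NK-like, and 9, 13 and 18 other cells). Their levels per library are therefore a description. Xcl1 in NK-like cells stood at 1198 CPM (20 UMIs in 3 cells), 484 CPM (25 UMIs in 9) and 1043 CPM (75 UMIs in 14) in the naïve, 24 h and 72 h libraries. Tnf was seen only at 72 h, with 18 UMIs in 5 of 26 cells. Ccl4, a chemokine for monocytes and T cells, stood at 4910, 1414 and 862 CPM, but 74 of its 217 UMIs came from a single Klra+ cell of the naïve library. Id2, at 2455, 1627 and 2100 CPM, and Fcer1g, at 2994, 2324 and 2893 CPM, varied less among libraries.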

How the data were processed

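Per the labels, the authors prepared 10x 3' v2 libraries, aligned reads to GRCm38/mm10 and obtained UMI counts with Cell Ranger 3.0.2. The deposited values are these counts per gene and cell, not normalized, for 14148 genes. The naïve, 24 h and 72 h libraries held 1865221, 10542346 and 5246731 UMIs. The submitters' notes also name Seurat.

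For each group of cells the counts of a gene were added up and expressed as CPM. Intervals are exact (Poisson, Clopper-Pearson, conditional Poisson for ratios; scipy 1.17.1), at 95%, and were tested on simulated data. They treat UMIs as independent and do not cover the spread between cells or mice. With 1 library per time point no test was run. Genes with at least 20 UMIs over both groups were compared. A gene can reach this limit through 1 group alone, and the limit then fixes its direction. A group at 0 was set to 3 UMIs. Named genes were members of the lists with at least 10 UMIs in the members, and the 10 highest and 10 lowest ratios among genes with at least 100 CPM in a group and UMIs in at least 5 cells. Some of those are not printed, and some items are not reported here. B cells had at least 2 UMIs of Cd79a and Ms4a1, no CD3 UMI and the same Lyz2 limit. The members and lists were chosen with earlier results of these data known. No doublets were removed. Scrublet (scanpy 1.11.5) called 15 of 4102 cells, 0 of them members, a low share, so doublets may remain.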

Additional observations from a re-analysis of the deposited data

How the results depend on the processing

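The shares of members depended on the selection. A marker minimum of 1 UMI gave 2.31% at 24 h and 5.25% at 72 h, a minimum of 3 UMIs 1.23% in the naïve library, where 87.5% of the members were then NK-like, and Lyz2 under 0.1% gave 0.498% at 24 h and 2.18% at 72 h. Thinning to 1000 UMIs gave 1.95% at 72 h. Leaving out cells with a UMI of Trbc1, Trbc2, Cd5, Cd6 or Cd28 gave 0.613%, 0.362% and 0.646% in the naïve, 24 h and 72 h libraries, and an NK-like share of 0% at 24 h (0 of 8) and 25% at 72 h (2 of 8). The remaining 51 alternative shares stayed within the main interval. Summed levels of the gene lists were less stable, in NK-like cells and in other cells poor in myeloid genes. Of their alternative values, 118 stayed within the main interval and 42 lay outside it. These alternatives took the mean over cells, or left out the deepest cell or doublet calls. A further one left ribosomal protein, mitochondrial and haemoglobin genes out of the total.

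With at least 40 UMIs over both groups fewer genes were compared. The numbers at least 2-fold higher and lower were then 82 and 100 for NK-like over all other cells, 70 and 18 over other cells poor in myeloid genes, 66 and 105 over CD3+ cells at 72 h, 31 and 30 for Klra+ over Cxcr6+ cells, 83 and 30 for members over CD3+ cells at 24 h and 69 and 67 at 72 h, and 25 and 27 at 24 h and 50 and 78 at 72 h with the myeloid-rich members left out. Leaving out each library in turn gave 32 to 57 higher and 43 to 71 lower genes for Klra+ over Cxcr6+ cells. Alternative ratios of named genes were taken only for the highest and lowest ratios of each comparison, 160 in all. Of these alternatives, 208 stayed within the main interval, 12 lay outside it and 0 changed direction. Because the ratios were picked as extremes, a change of direction was unlikely, and its absence shows little. The other named genes were not covered. The division at 1.5%, the Klra+ and Cxcr6+ sets and the members without myeloid-rich cells were added after the data were seen. No paired analysis was possible because each time point had 1 library. Depth limits genes at a few UMIs per group, such as Ifng.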
